A study of Mus musculus with 2 samples.

Results

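Schwann cells wrap the axons of peripheral nerves, and nerve fibres with their Schwann cells run through fat under the skin together with its vessels. The 7 genes described here, Sox10, Mbp, Pmp22, Prx, Mal, Ngfr and Ncam1, were chosen by symbol because they are widely used marks of Schwann cells and nerve, out of 43346 annotated genes measured. They were read in 2 RNA-seq libraries of tissue labelled as mouse subcutaneous fat, which the labels number 1 and 2 as biological replicates, each with a tissue sample of its own; there is 1 group. Both come from adult C57BL/6J mice of 8 weeks, with no treatment or engineered allele in the labels, and in both the tissue of male and female littermates was pooled. The number of animals per pool is not given, and their health is recorded as unknown. There is no second condition, so the data show the level of each gene, the form of its transcripts, and how far the libraries lay apart.

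The libraries did not look alike as tissue. Replicate 1 held 53601218 estimated gene counts and replicate 2 held 57500971. Levels are given in TPM, the usual unit of relative transcript abundance, which allows for transcript length and for all RNA counted in a library. All 10 genes of a white adipocyte list were at 1 TPM or more in both, and their levels summed to 19643 TPM in replicate 1 and 39643 TPM in replicate 2. Smooth muscle genes summed to 6050 TPM in replicate 1, against 681 TPM in replicate 2, glandular epithelium genes to 827 against 19.6 TPM, and genes known from the uterus to 732 against 38.0 TPM. Replicate 1 thus held far more RNA of the listed genes known from tissues other than the labelled fat. The lists were chosen with earlier results of these data known, so these sums describe the libraries and test nothing. With 2 libraries, a result without replicate 1 is the value of replicate 2, given beside it throughout.

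Myelin is the Schwann cell's own membrane, spiralled around an axon and pressed into compact layers. Sox10, a transcription factor of the neural crest, stands at the head of the programme: with Egr2 it turns on the genes of the myelin proteins. Among these, Pmp22 and Mbp belong to compact myelin, Prx anchors the outer wrap to the surrounding basement membrane, and Mal sorts proteins and lipids into the myelin membrane. Schwann cells that do not make myelin, and those that have lost their axon, carry Ngfr and Ncam1 at their surface instead. None of the 7 is found in Schwann cells alone: Pmp22 is common in fibroblasts and epithelia, Mal in epithelia, Ngfr in several mesenchymal and epithelial basal cells, Ncam1 in muscle and neurons, and Sox10 in melanocytes and some glands. In bulk tissue, fewer cells of a type and less RNA per cell cannot be told apart.

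Of the 7 genes, 4 had an upstream sequence in the RefSeq table of GRCm38.p6, and Mbp, Sox10 and Ncam1 are named only. The sequences shown are the 250 bases before the RefSeq start of the genes the results turn on. For Pmp22 these precede the first start, whose share of the gene differed between the libraries, and, for contrast, a downstream RefSeq start. That downstream start lies close to the beginning of Pmp22-201, though no annotated transcript begins with the same bases. The windows of Ngfr and Mal, which lay furthest apart in level, are shown too. Each is written 5′ to 3′ on the strand of the gene, and capitals mark GGGCGG, the core of the GC box, read on either strand.
Pmp22, first start, chr11:63128732-63128981, plus strand: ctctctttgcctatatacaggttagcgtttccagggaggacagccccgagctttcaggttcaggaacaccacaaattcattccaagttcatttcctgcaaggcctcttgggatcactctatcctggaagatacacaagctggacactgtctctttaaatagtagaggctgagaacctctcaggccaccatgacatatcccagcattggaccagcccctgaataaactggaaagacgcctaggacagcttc
Pmp22, a start downstream of it, chr11:63131207-63131456, plus strand: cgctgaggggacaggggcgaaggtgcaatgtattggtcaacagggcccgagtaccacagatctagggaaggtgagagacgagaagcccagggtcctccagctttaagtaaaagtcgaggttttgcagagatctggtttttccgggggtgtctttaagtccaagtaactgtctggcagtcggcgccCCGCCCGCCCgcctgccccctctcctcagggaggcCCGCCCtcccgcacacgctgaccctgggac
Ngfr, chr11:95587699-95587948, minus strand: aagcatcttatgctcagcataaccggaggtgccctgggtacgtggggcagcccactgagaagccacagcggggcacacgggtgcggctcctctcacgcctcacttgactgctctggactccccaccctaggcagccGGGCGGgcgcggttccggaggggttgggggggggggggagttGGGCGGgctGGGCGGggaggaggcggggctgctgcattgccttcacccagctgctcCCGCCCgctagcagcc
Mal, chr2:127656696-127656945, minus strand: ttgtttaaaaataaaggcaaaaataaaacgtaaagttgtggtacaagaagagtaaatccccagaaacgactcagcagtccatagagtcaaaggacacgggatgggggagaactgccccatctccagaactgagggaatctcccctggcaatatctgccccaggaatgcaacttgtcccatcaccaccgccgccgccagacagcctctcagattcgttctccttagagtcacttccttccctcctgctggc
The windows of the Pmp22 starts differ in base composition. The first has a GC content of 48.8%, 3 CpG pairs and no GC box core. The downstream one has a GC content of 61.2%, 14 CpG pairs and 3 copies of the core, some of them overlapping. Other downstream windows of Pmp22, not shown, varied. The window before Pmp22-203 has a GC content of 64.8%, 14 CpG pairs and no core, and that before Pmp22-205 has 73.6%, 27 and 3 copies. The Ngfr window has a GC content of 70.4%, 16 CpG pairs and 4 copies, and the Mal window 50%, 7 CpG pairs and none. The RefSeq start of Ngfr lies inside the gene as annotated, so the last bases of its window, with the nearest copy, are part of the gene. Over all 32817 RefSeq windows of 250 bases the medians are a GC content of 52.4% and 6 CpG pairs, and 32.7% hold the core. ACAAAG, a core of the motif that SOX factors bind, read on either strand, is in none of the 7 windows that the table holds for Mal, Ngfr, Pmp22 and Prx, and in 16.5% of all windows. These are matches of letters in short windows and say nothing of binding.

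Pmp22 was the most abundant of the genes in both libraries. Sox10 had the lowest mean, although in replicate 2 it was at rank 4 of 7, above Prx, Ncam1 and Mal. On the TPM scale the mean levels were 164 ± 12.9 for Pmp22, 72.9 ± 99.7 for Ngfr, 15.0 ± 2.11 for Mbp, 5.84 ± 7.79 for Mal, 2.81 ± 3.21 for Ncam1, 1.74 ± 0.884 for Prx and 1.57 ± 0.0495 for Sox10 (mean ± SD, n = 2 for each). For Ngfr, Mal and Ncam1 the SD is larger than the mean, so these means describe neither library. Of neighbours in this order, Pmp22 lay above Ngfr, and Mbp above Mal, in every pairing of the libraries' values. The values of Ngfr and Mbp, of Mal and Ncam1, of Ncam1 and Prx, and of Prx and Sox10 overlapped between the libraries, and their order is not fixed by these data. All 7 genes reached 1 TPM in replicate 1 and 5 did in replicate 2, where Mal and Ncam1 did not. Together they summed to 350 TPM in replicate 1, of which Pmp22 took 49.3% and Ngfr 41.0%, and to 177 TPM in replicate 2, of which Pmp22 took 87.4% and Ngfr 1.35%.

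**Figure D1:**
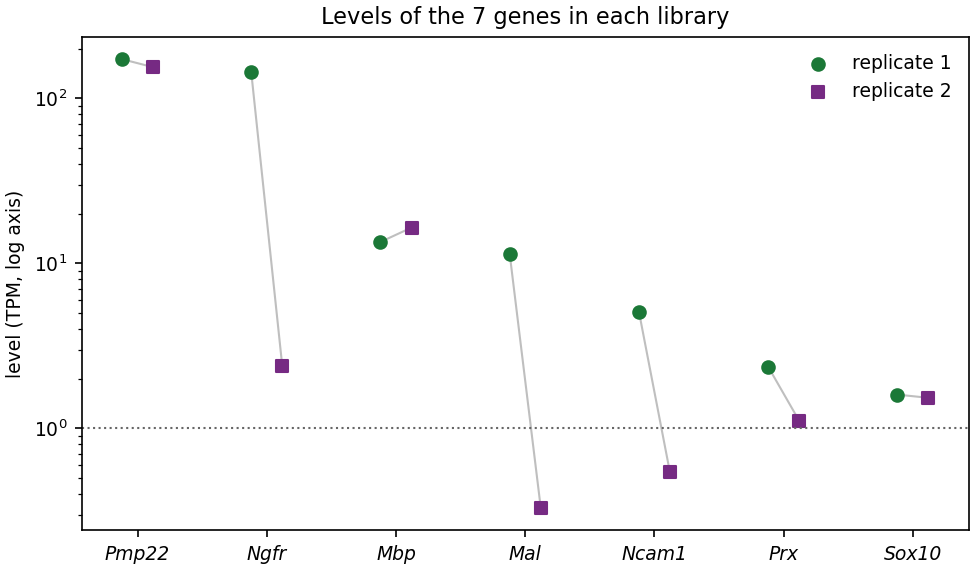
Level of each gene in TPM on a log axis, in replicate 1 (circles) and replicate 2 (squares), with a line joining the libraries and a dotted line at 1 TPM. Pmp22, Mbp and Sox10 lie close together in the libraries, while Ngfr at 143 against 2.38 TPM, Mal at 11.4 against 0.33 TPM and Ncam1 at 5.08 against 0.54 TPM lie far apart.

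For the ratio between the libraries, counts were scaled with TMM factors, which set the bulk of genes to a ratio near 1 (median log2 ratio -0.01 over 17180 genes, those whose scaled counts averaged 10 or more). The call of a difference asked that the whole 95% counting interval of the ratio, replicate 1 over replicate 2, be above 2 or below 0.5. By this rule 3 of the 7 genes were higher in replicate 1 (Ngfr, Mal and Ncam1), none was lower, and 4 were within the bound. Over all 17180 genes, 24.3% were called, 14.3% as higher and 9.95% as lower in replicate 1, so calls are common in this pair of libraries. The median log2 ratio of the 7 genes was 0.42. Scaling by total counts adds 0.51 to every log2 ratio and turns 59.0% higher among all called genes into 84.5%; the same 3 genes stay called. Each ratio compares 1 library with 1 library, so no p-value is given and the interval covers counting error alone.

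**Figure D2:**
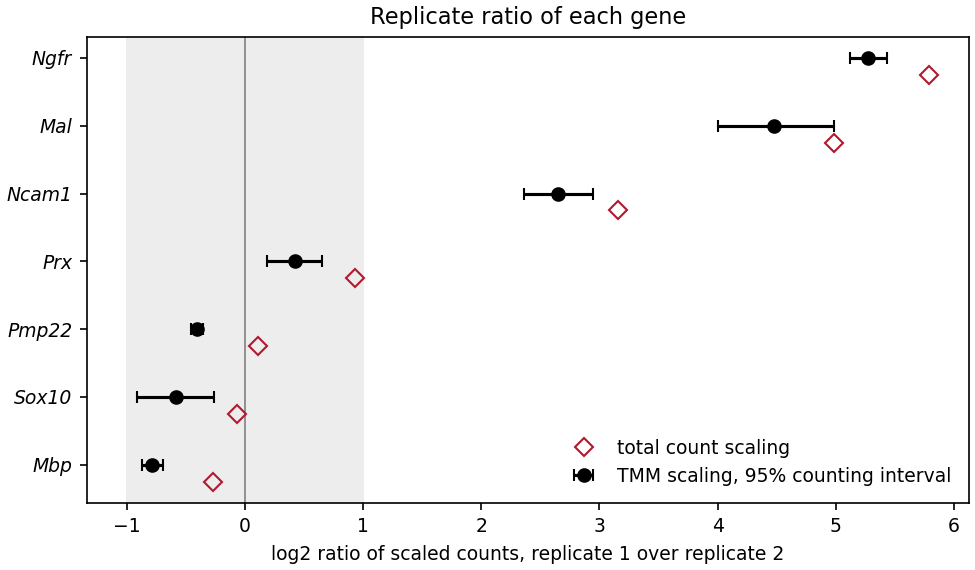
Log2 ratio of scaled counts, replicate 1 over replicate 2, for each gene, with its 95% counting interval under TMM scaling (filled circles) and the value under total count scaling (open diamonds); the grey band spans the 2-fold bound. Ngfr at 5.27, Mal at 4.47 and Ncam1 at 2.65 lie outside the band, and the sign of Pmp22 depends on the scaling.

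Sox10, the transcription factor of the group, was low and similar in the libraries. It had 150 counts and 1.60 TPM in replicate 1 and 169 counts and 1.53 TPM in replicate 2, all of them on its single transcript, which encodes 466 amino acids. The scaled count was 1.5-fold lower in replicate 1 (95% interval 1.20 to 1.88), within the bound. That small gap is a matter of scaling, since the log2 ratio is -0.59 with TMM factors, -0.07 with total counts and 0.06 as a ratio of TPM. The gene lies on the minus strand at chr15:79154908-79165240 (GRCm38). Set against Sox10 within the same library, which needs no scaling, Pmp22 was 108 times its TPM in replicate 1 and 101 times in replicate 2, and Mbp 8.42 times and 10.8 times. The same quotient was 89.6 in replicate 1 and 1.56 in replicate 2 for Ngfr, 7.09 and 0.216 for Mal, 3.18 and 0.353 for Ncam1, and 1.48 and 0.725 for Prx. The quotients of Pmp22 and Mbp as whole genes were thus close in the libraries. Those of Ngfr, Mal and Ncam1 lay far apart, with Prx in between. Whole-gene values add up all transcripts, and single forms were less alike. Mbp transcripts from the downstream start had 4.34 TPM in replicate 1 and 7.10 TPM in replicate 2. The Pmp22 transcript from the first start had 26.3 and 40.3 TPM.

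Mbp, the myelin basic protein gene, had 1782 counts in replicate 1 and 2303 in replicate 2, or 13.5 and 16.5 TPM. It was 1.72-fold lower in replicate 1 (1.62 to 1.83), within the bound. Most of this RNA was not of the classic myelin form. The locus has a first start, from which the so-called Golli transcripts run, known from immune cells and neurons, and a start about 79.4 kb downstream, which makes the myelin proteins in Schwann cells and oligodendrocytes. Transcripts from the first start took 1507 of the estimated counts, or 84.6%, in replicate 1 and 1810, or 78.6%, in replicate 2. Nearly all were Mbp-205, which ends 83.6 kb from the first start, before the last exons of the gene, and encodes 195 amino acids. It stood at 8.56 TPM in replicate 1 and 8.78 TPM in replicate 2.

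Transcripts that begin at the downstream start or beyond it, 12 in the annotation, held 275 estimated counts and 4.34 TPM in replicate 1, against 493 counts and 7.10 TPM in replicate 2. They made up 32.2% of the gene's TPM in replicate 1 and 43.1% in replicate 2. Their scaled count was 2.39-fold lower in replicate 1 (2.06 to 2.78), while that of the first-start transcripts was 1.60-fold lower (1.49 to 1.71). With total counts the downstream log2 ratio is -0.74 in place of -1.26 and no longer beyond 2-fold. The leading downstream transcript, Mbp-211, encodes 128 amino acids and had 2.98 TPM in replicate 1 and 4.55 TPM in replicate 2. First-start transcripts that run on into the last exons had 0 counts in replicate 1, which allows up to 3, and 7.61 in replicate 2. The grouping by start was made after the values were seen, and estimated counts of overlapping transcripts depend on how the counting model divides their reads.

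Pmp22, the peripheral myelin protein 22 gene, had 6822 counts in replicate 1 and 6793 in replicate 2, or 173 and 154 TPM, above 98.2% of all genes in each. The scaled count was 1.33-fold lower in replicate 1 (1.28 to 1.37) by TMM, while the log2 ratio of -0.41 becomes 0.11 with total counts and 0.16 as a ratio of TPM, so the direction is not settled. The gene lies on the plus strand at chr11:63128982-63159547. Its 4 coding transcripts start at different places and encode the same protein of 160 amino acids, with identical coding sequences. In rat and human, an upstream promoter of this gene is used mainly by myelinating Schwann cells and a downstream one by many cell types; the deposited tables do not name promoters.

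The first start, whose upstream bases are shown above with few CpG pairs, belongs to Pmp22-204. That transcript had 1588 estimated counts in replicate 1 and 2854 in replicate 2, and its share of the gene's TPM was 15.2% in replicate 1 and 26.1% in replicate 2. Its scaled count was 2.39-fold lower in replicate 1 (2.25 to 2.55). As for Mbp, this figure depends on how the counting model divides the reads of overlapping transcripts. The later starts together had a ratio of 0.998 (0.957 to 1.04), in which transcripts with ratios above and below 1 cancel. With total counts the log2 ratios are -0.74 for the first start, no longer beyond 2-fold, and 0.51 for the later ones, and the gap between them is the same. Among the later starts, Pmp22-201, which begins 2.53 kb downstream, had 59.7 TPM in replicate 1 and 28.7 TPM in replicate 2, a scaled ratio of 1.33. Pmp22-202, which begins 4.09 kb downstream, was the most abundant form by TPM, with 72.6 TPM or 42.1% in replicate 1 and 81.5 TPM or 52.8% in replicate 2, and a scaled ratio of 0.575 (0.536 to 0.617). By estimated counts it was not the largest: it averaged 24.0% of the gene's counts, against 40.8% for Pmp22-201.

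**Figure D3:**
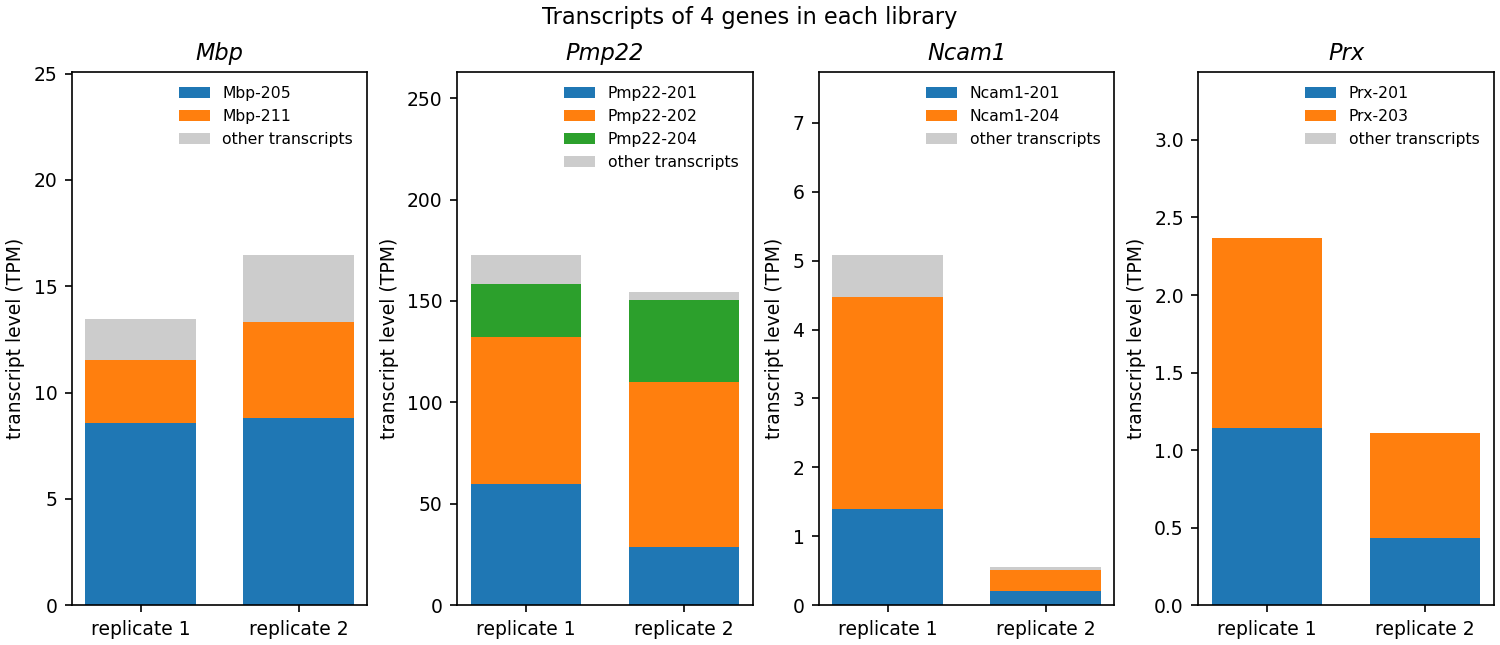
Transcript levels in TPM, stacked, for Mbp, Pmp22, Ncam1 and Prx in replicate 1 (left bar) and replicate 2 (right bar); transcripts under 10% of their gene in both libraries are grey. Pmp22-204 takes 15.2% of its gene in replicate 1 and 26.1% in replicate 2, and Mbp-205, from the first start, is the largest part of Mbp in both.

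Prx encodes periaxin, which holds the outer myelin wrap to the basement membrane. It had 424 counts and 2.36 TPM in replicate 1, and 238 counts and 1.11 TPM in replicate 2. The scaled ratio was 1.34 (1.14 to 1.57), within the bound. An antisense gene that overlaps it, Gm15541, had 42 counts in replicate 1 and 32 in replicate 2 in these stranded libraries, and no source used here says how the counting treated strand. The gene lies on the plus strand at chr7:27499324-27520214 and makes a long and a short protein. Reading through an intron gives the short one, Prx-203, with 148 amino acids, and Prx-201 gives the long one, with 1391. They share 381 coding bases in Prx-203 before they part; lower case marks the last shared bases and capitals the first that differ.
Prx-203: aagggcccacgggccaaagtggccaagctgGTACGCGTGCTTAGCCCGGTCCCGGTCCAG
Prx-201: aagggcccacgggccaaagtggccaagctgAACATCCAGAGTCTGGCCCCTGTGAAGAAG
By the estimates, the short form took more of the gene's TPM than the long one in both libraries. In replicate 1 the gap was narrow, at 1.23 against 1.14 TPM. As for Mbp and Pmp22, the split depends on how the counting model divides the reads of overlapping transcripts. Prx-203 had 51.8% in replicate 1 and 61.1% in replicate 2, and Prx-201 had 48.2% and 38.9%. In counts, the long form had 184 in replicate 1 and 81.8 in replicate 2, and the short form 240 and 156.

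Mal, the myelin and lymphocyte protein gene, had 1094 counts and 11.4 TPM in replicate 1, against 37 counts and 0.33 TPM in replicate 2. It was 22.2-fold higher in replicate 1 (16 to 31.7). All counts lay on Mal-202, which encodes 153 amino acids, and none on Mal-201 in either library. Among the 7 genes it was at rank 4 in replicate 1 and at rank 7 in replicate 2. It lies on the minus strand at chr2:127633226-127656695. Mal belongs to the MARVEL domain family of membrane proteins that shape and sort vesicles. Over all genes, 14.3% were called higher and 9.95% lower in replicate 1. Of the 13 family genes, all with enough counts, 4 were over 2-fold higher in replicate 1 and none lower. Their median log2 ratio was 0.39. The others called were Marveld2, a protein of tight junctions, at 737 against 50 counts, Marveld3, also of tight junctions, at 222 against 0 counts, and Cmtm7, at 3927 against 1322 counts. Myadm and Marveld1, abundant members, had ratios of 0.854 and 1.10, and Pllp, a myelin relative of Mal, had 950 counts in replicate 1 and 1099 in replicate 2.

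Ngfr encodes the low-affinity neurotrophin receptor p75, a member of the TNF receptor family that binds neurotrophins alone or beside the Trk kinases. It showed the widest gap of the 7 genes. Replicate 1 had 17432 counts and 143 TPM, above 97.7% of all genes, and replicate 2 had 339 counts and 2.38 TPM, above 74.0%. The scaled count was 38.6-fold higher in replicate 1 (34.7 to 43.1), and its log2 ratio was 5.27 to 5.79 over the count scalings tried and 5.91 as a ratio of TPM. The gene, on the minus strand at chr11:95568818-95587735, has a single transcript in the annotation, which encodes 427 amino acids, so no choice of isoform enters the figure.

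Partners of Ngfr lay on both sides. Of 20 genes of neurotrophins and related factors and receptors, Ngfr included, 7 were over 2-fold higher and 3 lower in replicate 1. The shares over all genes were 14.3% and 9.95%. The median log2 ratio of the list was 0.12, and with total counts 1 was lower. The Trk receptor gene Ntrk2 had 42.6 TPM in replicate 1 and 35.7 TPM in replicate 2, and Ntrk3 had 13.6 and 12.4 TPM, both within the bound. Sort1, the sortilin co-receptor of p75 for proneurotrophins, was 2.41-fold lower in replicate 1, at 88.5 TPM against 132 TPM, while its relative Sorcs2 was 5.42-fold higher. Bex3 and Maged1 both encode proteins that bind the intracellular part of p75. Bex3 had 1429 against 184 counts and was 5.83-fold higher in replicate 1, and Maged1, the most abundant gene of the list, had a ratio of 1.12. Among the factors of the GDNF family, Gdnf had 317 against 2 counts, a ratio of 119 (32.7 to 987), and Artn was 20.9-fold higher, while their signalling receptor Ret was 7.90-fold lower, with 778 against 4617 counts. Ntf5, a ligand of Ntrk2, had 49 against 7 counts and was called higher too.

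Ncam1 encodes the neural cell adhesion molecule, which joins cells by binding itself. It had 917 counts and 5.08 TPM in replicate 1, against 110 counts and 0.54 TPM in replicate 2, and was 6.26-fold higher in replicate 1 (5.13 to 7.70). The gene spans chr9:49502136-49798925 on the minus strand. Its forms differ at the 3′ end: Ncam1-204 encodes 848 amino acids with a segment that crosses the membrane, and Ncam1-201 encodes 725 and ends earlier, as the form held by a lipid anchor does. Their coding sequences part after 2104 bases of Ncam1-201, shown with the last shared bases in lower case and the first that differ in capitals.
Ncam1-201: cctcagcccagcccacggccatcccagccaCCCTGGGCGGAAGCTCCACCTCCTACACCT
Ncam1-204: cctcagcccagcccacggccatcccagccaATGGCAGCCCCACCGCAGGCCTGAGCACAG
The mix of forms was similar in the libraries although the level was not. Ncam1-204 took 60.6% of the gene's TPM in replicate 1 and 56.4% in replicate 2. Ncam1-201 took 27.4% in replicate 1, on 123 estimated counts, and 37.1% in replicate 2, on 21. Of 10 relatives and partners, Ncam1 included, 9 had enough counts. Of these, 2 were over 2-fold higher in replicate 1, Ncam1 and St8sia2, and 1 was lower, beside 14.3% and 9.95% of all genes. The median log2 ratio was 0.35, and with total counts 4 were higher. St8sia2 makes the polysialic acid chain that Ncam1 carries in immature cells, and it had a like ratio, 6.34 (4.52 to 9.13), on 321 counts in replicate 1 against 38 in replicate 2. St8sia4, the other enzyme for that chain, had 364 counts in replicate 1 and 421 in replicate 2, within the bound. The gene lower in replicate 1 was Prnp, the prion protein gene, at 136 TPM against 318 TPM, and Fgfr1, a growth factor receptor that Ncam1 binds, had 58.3 TPM against 66.9 TPM.

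Genes of the Schwann cell were then read from lists, whose counts and medians include those of the 7 genes that belong to them. Some called genes that the naming rule did not pick are named too, and were chosen after their values were seen. Over all genes, 14.3% were called higher and 9.95% lower in replicate 1, and the list counts are to be read beside these shares. Of 20 myelin protein genes, 18 had enough counts. Of these, 5 were over 2-fold higher and 2 lower in replicate 1, at a median log2 ratio of 0.13. Cldn19, a claudin of Schwann cell junctions, was among the genes lower there, with 12 against 49 counts. With total counts no gene of the list is called lower. Those higher in replicate 1, beside Mal, were Drp2, the partner of periaxin, at 4.78-fold, the connexin gene Gjb1 at 29.7-fold (7.94 to 249) on 79 against 2 counts, the sulfatide enzyme gene Gal3st1 at 13.3-fold, and the adhesion gene Cadm4 at 2.49-fold. Mag, Cnp, Pllp and Fa2h were within the bound. Pmp2, a lipid carrier of peripheral myelin, had 0 counts in replicate 1 and 1 in replicate 2.

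Of 16 regulators of the Schwann cell, 12 had enough counts. Of these, 3 were over 2-fold higher in replicate 1 and none lower, a share near the 24.3% called over all genes. The median log2 ratio was -0.30. Egr2, which acts with Sox10 on myelin genes, had 400 counts in replicate 1 and 373 in replicate 2, and Dhh, a signal that Schwann cells send to the nerve sheath, had 277 and 312. Both were within the bound, as was Sox10. The genes higher in replicate 1 were Nab2, a cofactor of Egr2, at 2.17-fold, the neuregulin receptor gene Erbb3 at 5.95-fold, and Nrg1, its ligand. Nrg1 had 338 counts against 0, and the lower 95% limit of its ratio was 68.4. With the floor of 3 counts in place of the 0 in replicate 2, its ratio was 84.6. Zeb2, a repressor needed for myelination and the most abundant of the list, had 4856 counts and 74.8 TPM in replicate 1 and 7523 counts and 60.9 TPM in replicate 2. Its scaled count was 2.06-fold lower in replicate 1, within the bound by its interval, while its TPM was higher there, so the direction is not settled. This ratio of scaled counts was the lowest among the genes of the list with average scaled counts of 100 or more. Pax3 had no count in either library.

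Of 12 genes of immature Schwann cells and of those that do not make myelin, 11 had enough counts. Of these, 3 were over 2-fold higher and 2 lower in replicate 1, at a median log2 ratio of 0.35. With total counts 5 were higher and 1 lower. Beside Ngfr and Ncam1, the gene higher in replicate 1 was Gfap, an intermediate filament gene, on 148 against 4 counts. S100b, a calcium-binding protein that adipocytes also make, had 88 counts in replicate 1 and 861 in replicate 2 and was 13.0-fold lower in replicate 1. The sodium channel gene Scn7a had 1983 counts in replicate 1 and 3412 in replicate 2 and was 2.29-fold lower. L1cam and Gfra3, also used as marks of these cells, were within the bound at ratios of 1.96 and 1.14. With TMM scaling, Ngfr, Ncam1 and Gfap thus lay on one side and S100b and Scn7a on the other, while 6 genes of the list were within the bound.

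Cells that travel with Schwann cells, or share their genes, were read in the same way. Of 18 genes of axons and neurons, 10 had enough counts, at a median log2 ratio of 0.59. Beside 14.3% of all genes higher and 9.95% lower, 3 of them were over 2-fold higher in replicate 1 and none lower. These were Gap43, a growth cone protein, at 48.2-fold on 385 against 6 counts, Dbh on 49 against 0 and Syt1 on 48 against 0. Uchl1 had 285 counts in replicate 1 and 315 in replicate 2, Stmn2 had 156 and 141, and Tac1, Scn9a and Scn10a had none in either. For the perineurium, the sheath around nerve bundles, 1 of 4 genes was higher in replicate 1, Cldn1, with a median of 0.61 (2 with total counts). In the Pmp22 family, 1 of 4 genes was higher in replicate 1 (Emp2, 2.29-fold) and 1 lower (Emp1, 2.75-fold), with a median of 0.10; with total counts 2 were higher and none lower. Oligodendrocytes, the myelin-making cells of the brain, share Mbp with Schwann cells, and their defining genes Mog, Opalin and Olig2 had no count in either library; 1 of 3 genes with enough counts was higher in replicate 1. Melanocytes share Sox10: none of 3 genes was called (1 with total counts), and their median was -0.61. Pmel had 90 counts in replicate 1 and 103 in replicate 2, Dct had 59 and 72, and Mitf had 1580 and 624, while Tyr had none in either and Tyrp1 had 0 and 1.

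The genes higher in replicate 1 stood beside large differences in the genes of other cells. Of 16 glandular epithelium genes, 13 had enough counts; 12 were over 2-fold higher and 1 lower in replicate 1, at a median log2 ratio of 6.85, while the milk protein genes Wap and Csn2 had no count in either library. All 10 genes known from the uterus were higher in replicate 1, with a median of 6.13, and all 8 smooth muscle genes, with a median of 2.80. Because the lists were chosen with earlier results of these data known, such counts are descriptions and not tests. Over all genes, 14.3% were called higher and 9.95% lower. All 10 white adipocyte genes were lower, with a median of -2.07, and 7 of 10 endothelial genes, with a median of -1.44 (2 with total counts). Skeletal muscle, which Ncam1 also marks, had 2 of 4 genes higher and 1 lower, at a median of 1.43, and Myh4, Chrng, Myog and Pax7 had no count in either library. Fibroblast and progenitor genes were 4 higher and 1 lower of 10, and T cell genes 1 higher and 1 lower of 8, with medians of 0.50 and -0.48. Ngfr, Mal and Ncam1 are known to be made by cells outside nerve, and the part of such cells in their higher level in replicate 1 was not tested. The other genes of the group, Sox10, Mbp, Pmp22 and Prx, were within the 2-fold bound, and Mbp was lower in replicate 1 at the 1.5-fold bound. Of the further Schwann cell genes read from lists, some were called higher and some lower, as given above.

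**Figure D4:**
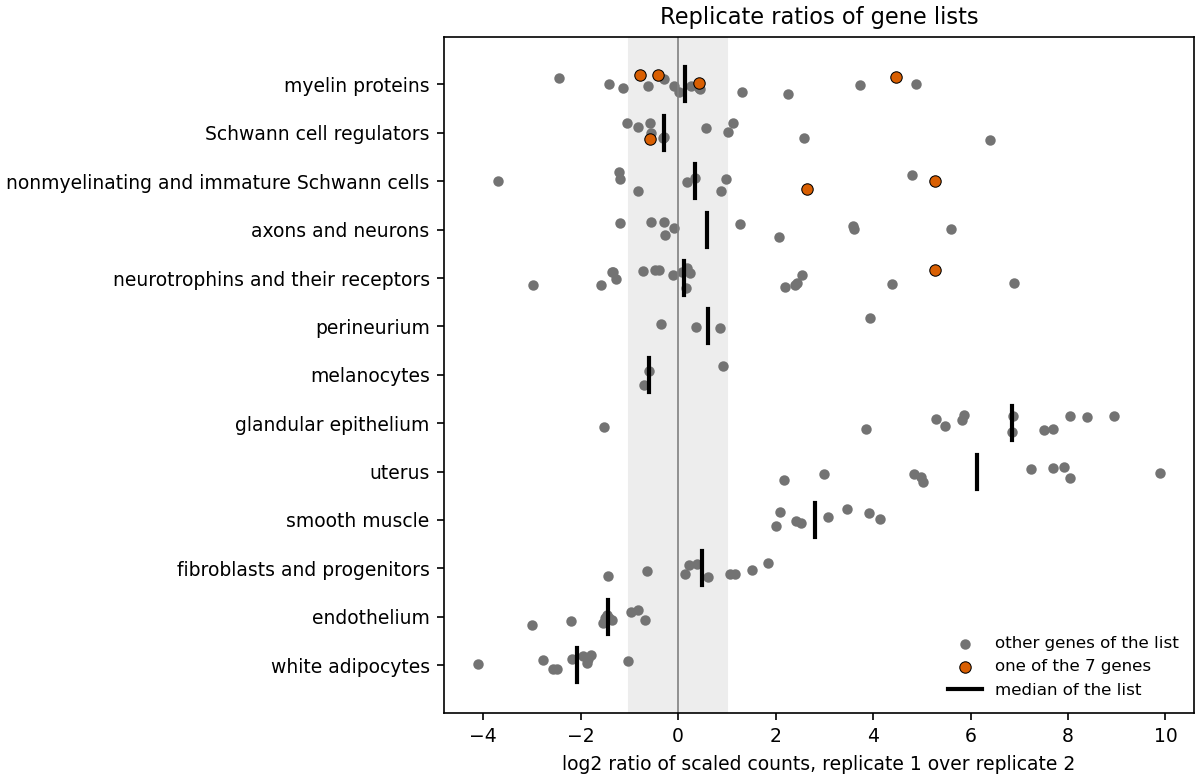
Log2 ratio of scaled counts, replicate 1 over replicate 2, for each gene with enough counts in 13 lists; orange points are among the 7 genes, black bars are list medians, and the grey band spans the 2-fold bound. The nerve lists have medians between -0.30 and 0.61, the glandular epithelium, uterus and smooth muscle lists medians of 6.85, 6.13 and 2.80, and the white adipocyte list a median of -2.07.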

How the data were processed

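Per the labels, polyA RNA over 200 nt without ribosomal RNA was read as stranded pairs of 76 nt, and spike-ins were added. The tables the authors deposited give expected counts, TPM and FPKM for each gene and transcript, and for transcripts also the percent of their gene's TPM. No source used here names the program that counted; the column names match those of RSEM. The deposited notes name mm10 and GENCODE release M4. A further pair of deposited tables on build mm9 was not used.

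Symbols, coordinates (GRCm38, the build of mm10) and transcript structures came from GENCODE release M21, which named 42462 of 43346 genes. Genes without a symbol took 0.120% of the counts in replicate 1 and 0.0762% in replicate 2. Library sizes left out spike-ins and tRNA features. The depth over all features came to 54752739 estimated counts for replicate 1 and 58687668 for replicate 2. Ratios divide replicate 1 by replicate 2 and use the rounded expected counts with TMM factors of 1.20 and 0.837 (edgeR 4.0.16, R 4.3.3). Their 95% intervals are exact (Clopper-Pearson; SciPy 1.17.1, Python 3.11.15, pandas 2.3.3). Intervals, and the floor of 3 counts used against a count of 0, cover counting error only. A call needs scaled counts that average 10 or more and an interval beyond 2-fold. The rule was tried on simulated counts that held counting error alone, so that trial says nothing of differences between tissue samples. Each side is 1 library, so there are no p-values. The labels give each library a tissue sample of its own but the same donor record, so the spread between replicates may be partly technical.

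The 7 genes and the 19 lists were chosen with earlier results of these data known. Named by rule are the 7 genes, the 4 genes of highest mean TPM in a list with its highest and lowest ratio at average scaled counts of 100 or more, and transcripts at 10% or more of their gene's TPM. Some genes of the lists are not reported here. Alternatives covered FPKM, posterior mean TPM, pseudocounts of 0.1 and 1, each library alone, scaling by DESeq2 (1.42.0), by total counts and by spike-ins, lower and higher count limits, a 1.5-fold bound and shares of counts. Groups of transcripts by start were added after the data were seen.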

Additional observations from a re-analysis of the deposited data

How the results depend on the processing

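Ngfr, Mal and Ncam1 had intervals beyond 2-fold, higher in replicate 1, under the count scalings and count limits tried, with log2 ratios of 5.27 to 5.79, 4.47 to 4.99 and 2.64 to 3.16. As ratios of TPM, which have no interval, these were 5.91, 5.10 and 3.23. At the 1.5-fold bound 1 of the 7 genes, Mbp, was also lower in replicate 1. Over all genes, 4038 were higher and 740 lower in replicate 1 with total counts and 3829 and 819 with spike-ins, in place of 2462 and 1709. With the 1.5-fold bound 6789 were called, 3178 of them lower. Total counts and spike-ins put 0.51 and 0.46 on every log2 ratio, DESeq2 size factors -0.00. Of the counts over lists, 88 stayed within 1.5 times and 26 did not, the 26 all under total counts or spike-ins. The direction of Pmp22 changes with total counts, spike-ins (0.05) and the ratio of TPM, and that of Sox10 only with the ratio of TPM (0.06); neither is called. Shares of counts in place of TPM give longer transcripts more weight: the mean shares were 79.9% for Mbp-205 and 32.6% for Pmp22-204, but 24.0% in place of 47.4% for Pmp22-202 and 16.3% in place of 32.3% for Ncam1-201. No paired analysis was possible because the series holds a single group. With 2 libraries, leaving out either one leaves a single value and no spread.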
